A study of Homo sapiens with 15 samples.

Results

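The collagen genes were followed across xenograft tumors of HCT116, an established line of human colon cancer cells, in athymic nude mice. A member was any non-control probe whose RefSeq accession leads to a symbol of the form COL, a number, A, a number, and antisense genes were left out. This gave 56 probes of 44 genes, out of 19483 genes named on the array, and all 44 collagen genes of the RefSeq table had at least 1 probe. RNA of 15 tumors, 3 per construct for 5 constructs, was hybridized to single-color Agilent human arrays. The constructs had been introduced by transient transfection: Myc-tagged MOAP-1, a pro-apoptotic adaptor protein, in the wild type form, the empty vector pCDNA3, MOAP-1 carrying the lysine-to-arginine change K264R or K278R, and HA-tagged RASSF1A, a tumor suppressor that binds MOAP-1. All groups share the cell line and the host, and no group is untransfected. The host lacks a thymus but keeps its own fibroblasts, vessels, and other leukocytes, and mouse RNA from these cells can bind human probes. The files hold no mouse probes, so human and mouse RNA cannot be told apart on any probe. In such bulk tumors, fewer cells of a type and less RNA per cell cannot be told apart either.

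Levels are given as log2 signal with the 75th percentile of each array set to 0. A probe was kept when at least 1 construct had all of its 3 tumors well above background by the scanner software's own test. A probe was called when its limma adjusted p was below 0.05 and its change at least 1.5-fold. The 75th percentile of the signal was 496.3 to 1402 on the 15 arrays, between 85.1% and 93.2% of spots were well above background, and no spot was saturated. All 9 epithelial marker genes of the list used for HCT116 cells had a kept probe. The MOAP1 probe lay between 0.34 and 0.71 in MOAP-1 tumors and between -0.53 and -0.13 in vector tumors. The RASSF1 probe lay between 1.55 and 1.59 in the tumors labelled RASSF1A and between 1.52 and 1.81 in vector tumors, so it did not set the first apart, and whether it binds the introduced transcript is not given in the sources used here. The vector tumors shared a slide with RASSF1A tumor 3, and no slide held both a vector tumor and a tumor of any MOAP-1 construct, so slide and construct cannot be told apart in those comparisons. Nothing in the labels says that the tumors came from separate transfections, so p values measure the spread between these tumors.

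Collagens are triple-helical proteins of the extracellular matrix. Fibrillar collagens (types I, II, III, V, XI, XXIV, and XXVII) form fibrils, whereas type IV forms the sheet-like network of basement membranes and type VI forms beaded filaments at their border. The chains are hydroxylated in the endoplasmic reticulum, trimmed outside the cell by propeptidases such as BMP1, and cross-linked by lysyl oxidases. In colon tumors, much of the fibrillar collagen is known to come from stromal fibroblasts, and epithelial cells contribute to the basement membrane.

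COL4A1 and COL4A2, which encode the chains of the common type IV heterotrimer, are transcribed in opposite directions from starts 127 bases apart. The bases between these starts are shown (RefSeq, GRCh38.p14, chr13:110307158-110307283, plus strand, on which COL4A2 lies). The reason is that COL4A2 was called lower in every MOAP-1 construct against vector and COL4A1 in none, a difference that was not itself tested. Capitals mark a CCAAT box (CCAAT) and a GC box (GGGCGG), each searched on both strands, which do not overlap. The same length before the start of COL5A1 (chr9:134641677-134641802, plus strand) is shown because the array reads this gene with probes that moved in opposite directions.
between COL4A1 and COL4A2: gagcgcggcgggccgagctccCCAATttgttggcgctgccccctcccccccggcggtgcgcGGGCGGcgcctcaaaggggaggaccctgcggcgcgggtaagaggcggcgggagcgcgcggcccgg
before COL5A1: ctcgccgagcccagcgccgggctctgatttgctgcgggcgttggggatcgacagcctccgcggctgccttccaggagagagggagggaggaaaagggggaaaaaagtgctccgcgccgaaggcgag
The type IV interval holds 1 match to each motif, and the COL5A1 window holds 0 of either. Over the 126 bases before each of 35116 RefSeq starts, 21.1% held a CCAAT and 34.6% a GGGCGG on either strand. G and C made up 80.2% of the type IV interval, 67.5% of the COL5A1 window, and a median of 60.3% of all windows. The RefSeq table held a window for 32 of the 44 collagen genes.

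Of the 56 probes, 47 probes of 38 genes were kept, and 43 were well above background on all 15 arrays. The other 9 probes include the 2 probes of COL6A3, a chain of the usual type VI heterotrimer, and single probes of COL11A1, COL2A1, COL6A6, COL22A1, COL28A1, COL19A1, and COL8A2. Neither COL6A3 probe was well above background on any array, with levels from -9.57 to -7.78. The COL11A1 probe, which reads a fibrillar chain, was likewise at background on every array. The dim COL8A2 probe (A_24_P365975) lay at -4.38 in vector tumor 2 and between -9.56 and -7.94 in the other tumors. COL2A1, the main collagen of cartilage, passed on 5 arrays, among them 2 of 3 K264R and 2 of 3 K278R tumors and no vector tumor.

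**Figure D1:**
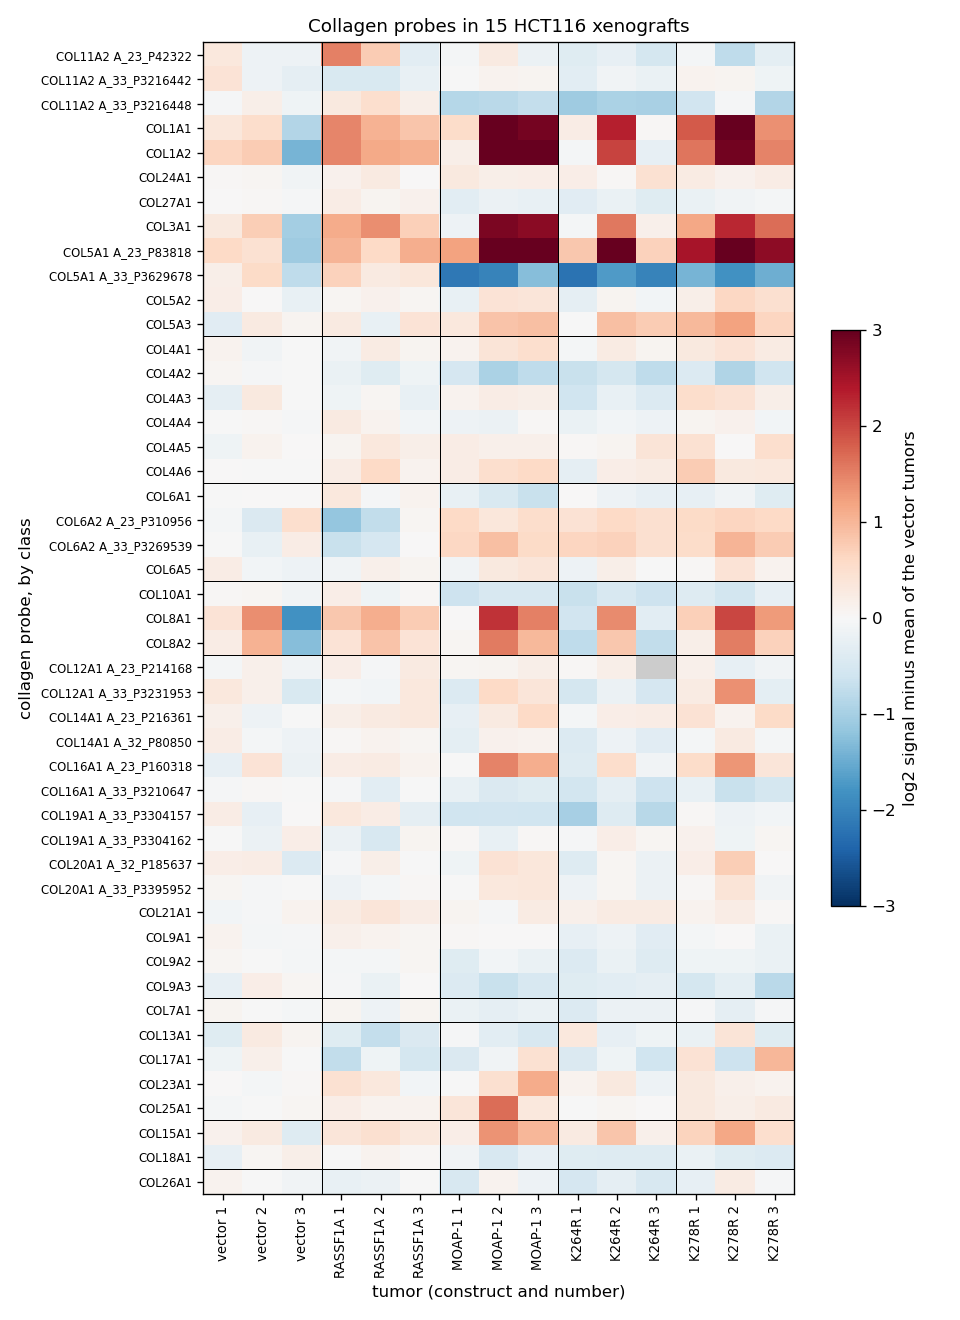
Each row is 1 of the 47 kept collagen probes, ordered by class, and each column 1 tumor. Color gives the log2 signal minus the mean of the 3 vector tumors, with the scale ending at -3 and 3 and gray for the 1 missing value. MOAP-1 tumors 2 and 3 and K278R tumor 2 are deep red at COL1A1, COL1A2, COL3A1, and COL5A1 A_23_P83818, and COL5A1 A_33_P3629678 is blue in all 9 tumors of the MOAP-1 constructs.

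Between MOAP-1 and vector tumors, 5 collagen probes were higher (10.6% of the 47) and 4 lower (8.51%), where 9.92% of all 30585 kept probes were called higher and 6.69% lower. The shares thus lay near the background of the arrays. The median change of the 47 was 0.17 on the log2 scale, against 0.02 for all kept probes. Between K264R and vector tumors 1 probe was higher and 5 were lower (2.13% and 10.6% of the 47), against 9.25% and 10.2% of all kept probes, and the median change was -0.10 against -0.05. Between K278R and vector tumors 3 were higher and 2 lower (6.38% and 4.26%), against 7.71% and 3.2%, with a median of 0.18 against 0.06. These 3 comparisons share the vector tumors. The tumors did not overlap vector on 19 of the 47 probes in MOAP-1, 19 in K264R, and 21 in K278R. Of all kept probes, 48.5%, 52.8%, and 37.3% did not overlap, to be set beside each separation from vector named below. In all, 11 probes of 10 genes were called at least once, 6 upward and 5 downward. Among the 43 probes well above background on all 15 arrays, 5 were higher and 3 lower in MOAP-1, 1 and 4 in K264R, and 2 and 2 in K278R. Of all 28153 probes under the same filter, 9.26% were higher and 6.93% lower in MOAP-1. The shares were 8.95% and 10.51% in K264R, and 6.75% and 3.40% in K278R. Called in all 3 comparisons were COL6A2 A_33_P3269539 upward and COL4A2 and COL5A1 A_33_P3629678 downward. No kept collagen probe was called between the tumors labelled RASSF1A and vector, where limma called 0% of all kept probes in either direction. Over all 5 constructs at once, the moderated F test called 10 of the 47, against 29.9% of all kept probes.

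**Figure D2:**
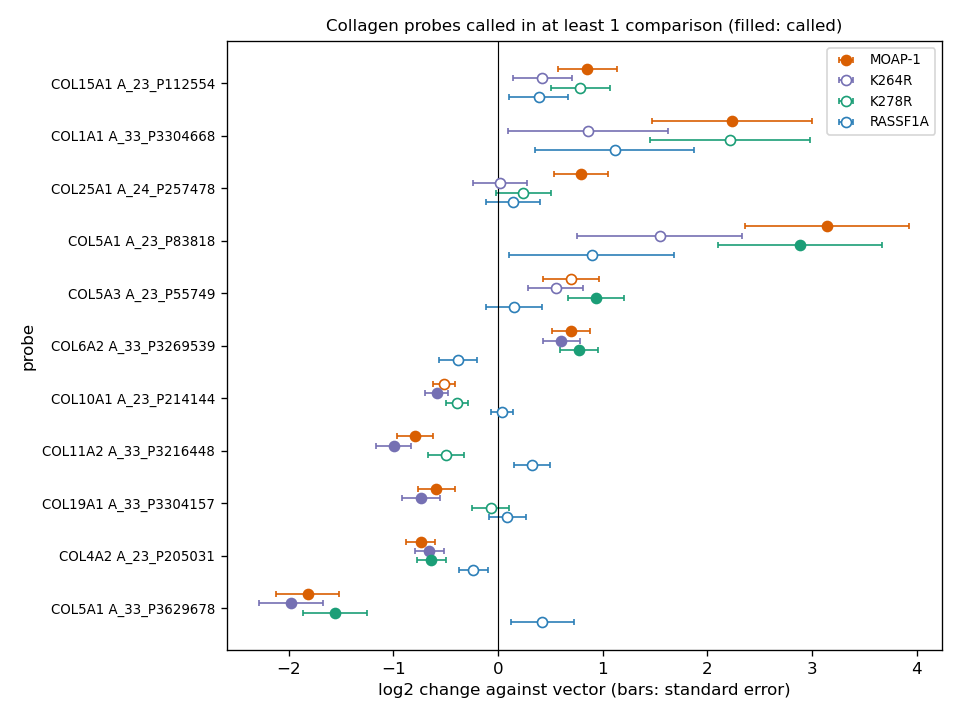
The log2 change against vector is plotted for the 11 collagen probes called in at least 1 comparison, with bars of 1 standard error from limma and filled points for calls. Points of the MOAP-1 constructs lie on 1 side of 0 for each probe, with COL5A1 at both ends of the plot, and no RASSF1A point is filled.

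The genes of type I collagen, the most abundant fibrillar type, are COL1A1 and COL1A2. COL1A1 lay at 1.99, 4.74, and 4.30 in MOAP-1 tumors 1 to 3 and at 1.79, 1.96, and 0.57 in vector tumors. It lay at 1.66, 3.78, and 1.47 in K264R tumors, at 3.27, 4.89, and 2.81 in K278R tumors, and at 2.90, 2.49, and 2.27 in the tumors labelled RASSF1A. MOAP-1 tumors 2 and 3, K264R tumor 2, and K278R tumor 2 were the highest, and vector tumor 3 was the lowest. The MOAP-1 and vector tumors did not overlap, although MOAP-1 tumor 1 lay only just above vector tumor 2. The change was 2.24 (standard error 0.76, limma adjusted p = 0.0406) between MOAP-1 and vector, 0.86 (adjusted p = 0.408) for K264R, and 2.22 (adjusted p = 0.055) for K278R. The call rested on most of the tumors: it was lost when MOAP-1 tumor 2, MOAP-1 tumor 3, or any vector tumor was left out, with an adjusted p of up to 0.155. It was also lost when the dim probes were kept in the fit, under the normexp background model, with only the arrays compared, and by the methods' t-test.

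COL1A2 followed the same tumors, at -0.27, 3.06, and 2.72 in MOAP-1, 0.19, 0.31, and -1.84 in vector, -0.50, 1.57, and -0.69 in K264R, 1.16, 2.44, and 1.03 in K278R, and 1.02, 0.68, and 0.62 in the tumors labelled RASSF1A. MOAP-1 tumor 1 lay below vector tumors 1 and 2, so these groups overlapped, and the change of 2.29 (standard error 0.85) did not pass (limma adjusted p = 0.0565). It was called with slide as a random block (adjusted p = 0.0375), with array weights (0.0158), and among the probes detected on all arrays (0.0488). COL3A1, the type III chain that co-assembles with type I in soft tissues, lay at -6.99, -4.01, and -4.14 in MOAP-1 tumors and at -6.56, -6.11, and -7.86 in vector tumors. It was well above background in 2 MOAP-1 tumors and 1 vector tumor, and in all 3 tumors of each other construct. Its change of 1.80 (standard error 0.71), against vector tumors mostly at background, did not pass either (adjusted p = 0.0697), but was called with slide as a random block (adjusted p = 0.0458). For K278R, where the tumors did not overlap vector, the changes were 1.99 for COL1A2 (adjusted p = 0.109) and 1.70 for COL3A1 (adjusted p = 0.102).

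Type V collagen sits inside type I fibrils and sets their diameter. COL5A1 is read by probes that opposed each other. Probe A_23_P83818 lay at -4.37, -1.14, and -1.76 in MOAP-1 tumors, at -4.97, -5.11, and -6.63 in vector, at -4.75, -2.44, and -4.89 in K264R, at -3.09, -2.08, and -2.88 in K278R, and at -4.56, -4.97, and -4.49 in the tumors labelled RASSF1A. Its highest tumors were the same as those of COL1A1. Probe A_33_P3629678 lay at 1.04, 1.18, and 1.90 in MOAP-1 tumors, at 3.37, 3.77, and 2.42 in vector, at 0.97, 1.48, and 1.18 in K264R, at 1.79, 1.37, and 1.73 in K278R, and at 3.87, 3.45, and 3.52 in the tumors labelled RASSF1A. On this probe every tumor of the MOAP-1 constructs lay below every vector and RASSF1A tumor. The shares of separated probes given above are for each construct against vector alone. This wider separation was not counted over all kept probes. The first probe was higher in MOAP-1 than in vector tumors by 3.14 (standard error 0.78, limma adjusted p = 0.00948), and the other was lower by a change of -1.82 (standard error 0.30, adjusted p = 0.00092). The first was called in K278R tumors also (2.88, standard error 0.78, limma adjusted p = 0.0225) but not in K264R (1.54, adjusted p = 0.145). The other was called in K264R (-1.98, adjusted p = 0.000393) and K278R (-1.56, adjusted p = 0.00532). The first lost its call in the MOAP-1 and K278R comparisons under the normexp background model, where its changes were 0.04 and -0.25. In the K278R comparison it also lost its call without K278R tumor 2 or 3 or vector tumor 2 or 3, when the change was as low as 2.35. In the MOAP-1 comparison both probes were called with any 1 tumor left out.

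The other type V chains moved less. COL5A2, a partner of COL5A1 in the heterotrimer, lay between -2.28 and -1.39 in all 15 tumors and was called in no comparison. The COL5A3 probe passed background in all 3 MOAP-1 and K278R tumors, in 2 K264R tumors and 2 labelled RASSF1A, and in 0 of 3 vector tumors. It was thus kept only through constructs in which it lay higher than in vector. It lay at -5.97, -5.72, and -6.30 in K278R tumors, at least 1.44-fold over vector (limma adjusted p = 0.0261), and the call was lost without K278R tumor 1 or 2 or vector tumor 1. Among the rest of the fibrillar class, COL11A2 had 3 kept probes that differed. Probe A_33_P3216448 lay at 4.37, 4.42, and 4.52 in MOAP-1, 5.20, 5.40, and 5.09 in vector, 4.16, 4.29, and 4.25 in K264R, 4.66, 5.19, and 4.36 in K278R, and 5.52, 5.73, and 5.41 in the tumors labelled RASSF1A. It fell by 0.79 in MOAP-1 (standard error 0.17, adjusted p = 0.0041) and by 1.00 in K264R (adjusted p = 0.000756). The other COL11A2 probes were called in no comparison with vector. The fibrillar probes as a class, 12 kept probes of 9 genes, gave 2 higher and 2 lower calls in MOAP-1, 0 and 2 in K264R, and 2 and 1 in K278R, to be read beside the shares of all kept probes given above.

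**Figure D3:**
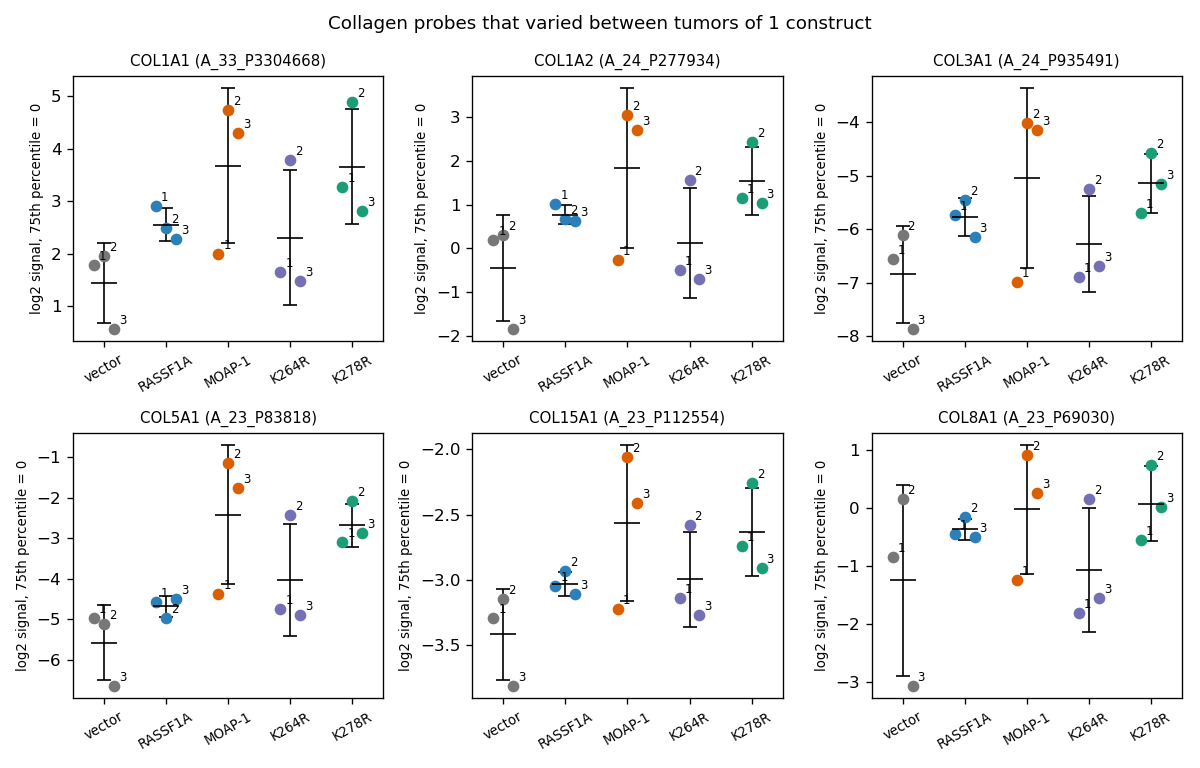
Log2 signal (75th percentile of each array set to 0) of 6 collagen probes is plotted per tumor and construct. Numbered points are tumors and bars give the mean and the SD (n = 3). On all 6 probes MOAP-1 tumor 2 lies far above MOAP-1 tumor 1, vector tumor 3 is the lowest of the 15 tumors, and the tumors labelled RASSF1A lie close together.

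Tumors of the same construct differed widely on a few collagen probes of the fibrillar, network, and fibril-associated classes and little on others of these classes. The SD of log2 signal within constructs was 1.19 for COL1A2, 1.07 for COL1A1, 1.06 for COL8A1, 0.99 for COL3A1, and 0.81 for COL8A2 A_33_P3297930. Each of these lay above the 95th percentile of all kept probes, as did COL5A1 A_23_P83818, between COL1A2 and COL1A1, and COL12A1 A_33_P3231953 (0.50). That makes 7 of the 47 (14.9%), and the median SD was 0.22 for the collagen probes and 0.18 for all kept probes. At the other end lay the fibrillar chain COL27A1 (0.07) and the fibril-associated chains COL9A1 (0.08) and COL9A2 (0.09).

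These probes deviated in the same tumors. With each value taken as its distance from the construct mean, COL1A1 was compared with 45 other kept collagen probes over the 15 tumors. The correlation with COL1A2 was r = 0.969 (rho = 0.986), and both had p = 0.000129 in an exact permutation of tumors within constructs, the smallest it can give (0.00579 after Benjamini-Hochberg adjustment over the 45). For COL15A1, a multiplexin of vessel and muscle basement membranes, it was r = 0.967 (exact permutation p = 0.00103, adjusted 0.0231; rho = 0.979, p = 0.000386, adjusted 0.00868). For COL5A1 A_23_P83818 it was r = 0.941 (exact permutation p = 0.00386, adjusted 0.0276; rho = 0.936, p = 0.0099, adjusted 0.041). For COL16A1 A_23_P160318, a fibril-associated collagen, it was r = 0.916 (exact permutation p = 0.0036, adjusted 0.0276; rho = 0.846, p = 0.0136, adjusted 0.0438). For COL3A1 it was r = 0.909 (exact permutation p = 0.00553, adjusted 0.0276; rho = 0.914, p = 0.00746, adjusted 0.041). Without MOAP-1 tumor 1 and K264R tumor 2, the tumors farthest from the median of COL1A1, r was 0.951, 0.953, 0.894, 0.867, and 0.857 in the same order. Of the 45 probes, 14 had an adjusted p below 0.05 for r, and the permutation was not run for other kept probes. The lowest r of the 14, 0.597 for COL11A2 A_33_P3216448, was reached by 12.9% of all other kept probes. Of all other kept probes, 0.519% had an r of at least 0.9 with COL1A1, and 5 of the 45 collagen probes did.

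**Figure D4:**
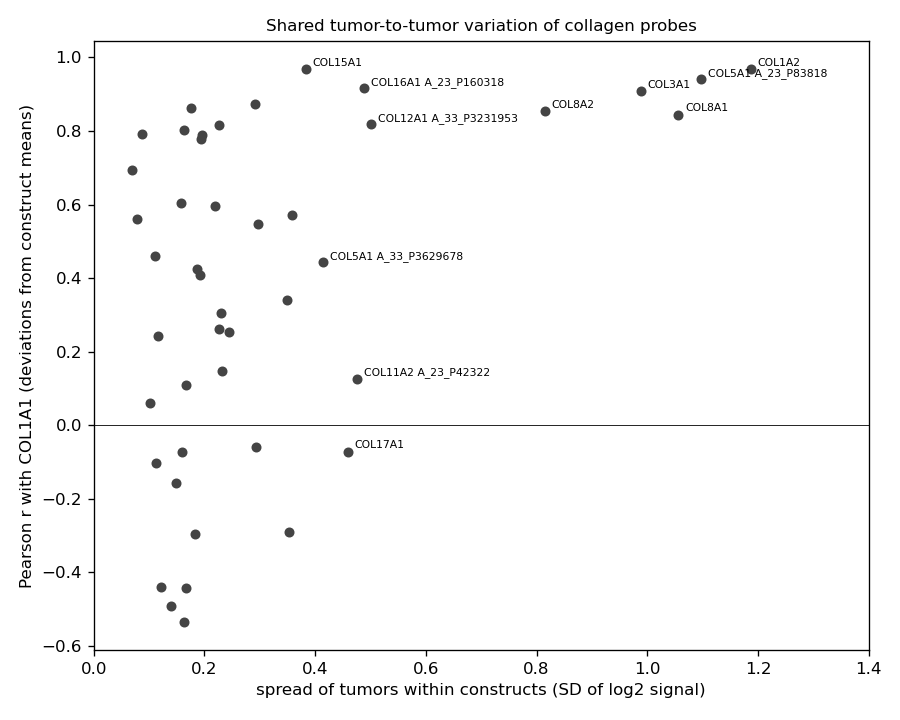
For 45 kept collagen probes, the x axis gives the SD of log2 signal between tumors within constructs and the y axis Pearson's r with COL1A1 over the 15 deviations from construct means. The probes with the widest spread, COL1A2, COL5A1 A_23_P83818, COL8A1, COL3A1, and COL8A2, all have an r above 0.8, while COL17A1 and COL11A2 A_23_P42322 spread more than most and have an r near 0.

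Some markers of stromal cells moved with the same tumors, and their part in the collagen levels was not tested. PDGFRA, a receptor of fibroblasts, lay at -4.06, -0.94, and -1.81 in MOAP-1 tumors and at -3.26, -3.87, and -6.07 in vector tumors. THY1, another fibroblast surface protein, lay at -1.20, 1.76, and 1.08 in MOAP-1 tumors and at -0.23, 0.81, and -3.22 in vector tumors. Over the 15 tumors the correlation of within-construct deviations with COL1A1, given as a description, ran from -0.41 (TAGLN A_23_P87011) to 0.88 (TAGLN A_23_P87013) over the 18 kept fibroblast and pericyte probes, with a median of 0.60. It was at least 0.8 for 6 of the 18, those of PDGFRB, PDGFRA, THY1, and FAP among them, and near 0 for S100A4 and CNN1. The median was 0.61 over 7 endothelial probes, 0.29 over 10 leukocyte probes, and 0.06 over 12 epithelial probes, and it was at least 0.8 for 1 probe of each of these lists, namely EMCN, CD79A, and VIL1. Of the 16 fibroblast and pericyte markers, 14 genes had a kept probe (18 probes), and in the MOAP-1 comparison 2 of the 18 probes were higher, those of TAGLN (A_23_P87013) and DCN (A_33_P3382856, well above background in 1 of 3 vector tumors), and 0 were lower. Of all kept probes, 9.92% were higher and 6.69% lower in MOAP-1, 9.25% and 10.2% in K264R, and 7.71% and 3.2% in K278R. These shares are the background for all marker calls, and 2 of 18 lies near them. The probes of LUM and POSTN, which encode a proteoglycan of collagen fibrils and a fibroblast matrix protein, were not kept, with LUM at background on every array. The summed level of the 18 probes, as a multiple of the 75th percentile signal, ran from 74.8 to 80.7 in MOAP-1 tumors, 69.0 to 84.1 in vector, 64.7 to 80.1 in K264R, 74.8 to 95.3 in K278R, and 68.0 to 74.9 in the tumors labelled RASSF1A. S100A4 alone made up 54.2% to 77.5% of this sum in each tumor, so the sum says little about the other markers. For endothelium, 7 of 8 markers had a kept probe, TEK did not, and the sum ran from 2.89 to 3.51 in MOAP-1, 2.64 to 2.88 in vector, 2.74 to 4.23 in K264R, 3.06 to 3.39 in K278R, and 2.93 to 3.24 in the tumors labelled RASSF1A. TIE1, an endothelial receptor, was called higher in MOAP-1 (limma adjusted p = 0.019) and K278R (adjusted p = 0.0304), and was well above background in all 3 tumors of each but in 1 of 3 vector tumors, so the size of its change is uncertain. CDH5 made up 52.9% to 70.7% of the endothelial sum. For leukocytes, 7 of 8 markers had a kept probe, and the sum ran from 21.7 to 26.5 in MOAP-1, 27.4 to 31.2 in vector, 20.0 to 22.7 in K264R, 24.7 to 28.3 in K278R, and 29.4 to 33.8 in the tumors labelled RASSF1A. CD79A made up 49.3% to 68.0% of the leukocyte sum, which was lower in MOAP-1 than in vector tumors, while the only leukocyte probe called in MOAP-1, PTPRC A_33_P3309526, was higher (0.72, limma adjusted p = 0.00857). The epithelial sum ran from 232 to 266 in MOAP-1, 278.3 to 317.1 in vector, 212 to 238 in K264R, 192 to 270 in K278R, and 241 to 274 in the tumors labelled RASSF1A, with all vector tumors above all others and KRT19 at 54.2% to 64.2% of it. Although this sum was highest in vector tumors, 1 of the 12 epithelial probes was called higher and 0 lower in MOAP-1 and in K264R. In K278R 0 were called in either direction.

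Among the basement membrane collagens, the paired type IV genes differed in their calls against vector. COL4A2 lay at 3.15, 2.71, and 2.89 in MOAP-1 tumors, at 3.71, 3.62, and 3.63 in vector, at 2.98, 3.12, and 2.90 in K264R, at 3.24, 2.76, and 3.06 in K278R, and at 3.46, 3.28, and 3.52 in the tumors labelled RASSF1A. All 9 tumors of the MOAP-1 constructs lay below all vector and RASSF1A tumors. Separation from vector alone was common, on 48.5% of all kept probes in MOAP-1, 52.8% in K264R, and 37.3% in K278R. Separation from vector and RASSF1A tumors together was not counted over all kept probes. COL4A2 fell by 0.74 in MOAP-1 (standard error 0.14, limma adjusted p = 0.00177), by 0.66 in K264R (adjusted p = 0.00275), and by 0.64 in K278R (adjusted p = 0.0081). COL4A1, which shares the printed interval, lay at -0.95, -0.65, and -0.54 in MOAP-1 tumors and at -0.93, -1.16, and -1.05 in vector tumors. Its change was 0.34 (standard error 0.13, adjusted p = 0.0649) in MOAP-1, 0.09 (adjusted p = 0.621) in K264R, and 0.32 (adjusted p = 0.1) in K278R. The K278R tumors, at -0.75, -0.64, and -0.81, did not overlap vector on COL4A1, while the MOAP-1 and K264R tumors did. The difference between the paired genes was not itself tested. Under quantile normalization the COL4A2 changes became smaller and were no longer called, as they were under the normexp model, and the change in the MOAP-1 comparison was then -0.51 and -0.47. In K278R the call was also lost without K278R tumor 2 (-0.51).

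The other type IV chains, COL4A3 to COL4A6, which form the specialized networks of kidney and skin, were called in no comparison with vector. COL4A3 was called by the F test over the 5 constructs (limma adjusted p = 0.00763), with K278R tumors at -4.19, -4.29, and -4.56 and K264R tumors at -5.33, -4.96, and -5.13. COL18A1, the multiplexin that yields endostatin, lay at 3.05, 2.68, and 2.91 in MOAP-1 tumors, 2.92, 3.22, and 3.33 in vector tumors, and 2.79, 2.77, and 2.76 in K264R tumors. Its changes of -0.27 (adjusted p = 0.102) in MOAP-1 and -0.38 (adjusted p = 0.0257) in K264R were under 1.5-fold. COL15A1 lay at -3.22, -2.06, and -2.41 in MOAP-1 tumors and at -3.29, -3.15, and -3.81 in vector tumors, which overlapped. It was called in MOAP-1 (0.85, standard error 0.28, adjusted p = 0.0354), but not without MOAP-1 tumor 2 or 3 or vector tumor 1 or 3, when the change was as low as 0.60.

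In type VI collagen, COL6A2 rose on 1 of its probes and no COL6A1 call was made. COL6A2 probe A_33_P3269539 lay at -1.52, -1.23, and -1.56 in MOAP-1 tumors, -2.14, -2.35, and -1.91 in vector, -1.49, -1.44, and -1.65 in K264R, -1.58, -1.12, and -1.38 in K278R, and -2.80, -2.63, and -2.12 in the tumors labelled RASSF1A. Every tumor of the MOAP-1 constructs lay above every vector and RASSF1A tumor. The shares of separated probes given above are for vector alone, and this wider separation was not counted over all kept probes. The rise was 0.70 (standard error 0.18, limma adjusted p = 0.0108) in MOAP-1, 0.61 (adjusted p = 0.0186) in K264R, and 0.77 (adjusted p = 0.011) in K278R. Without vector tumor 2 the call was lost in all 3 comparisons, with an adjusted p of 0.0536 in MOAP-1, 0.0802 in K264R, and 0.0571 in K278R. It was also lost in MOAP-1 without MOAP-1 tumor 2 and in K264R without K264R tumor 1 or 2. Under the normexp background model the change in MOAP-1 was -0.02. The other COL6A2 probe, A_23_P310956, changed by 0.48, 0.50, and 0.61, with adjusted p of 0.177, 0.152, and 0.112. COL6A1 lay at 3.63, 3.39, and 3.19 in MOAP-1 tumors and at 3.84, 3.86, and 3.87 in vector tumors, without overlap, and its change of -0.46 (standard error 0.13, adjusted p = 0.0159) was under 1.5-fold. COL6A5 was called in no comparison.

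**Figure D5:**
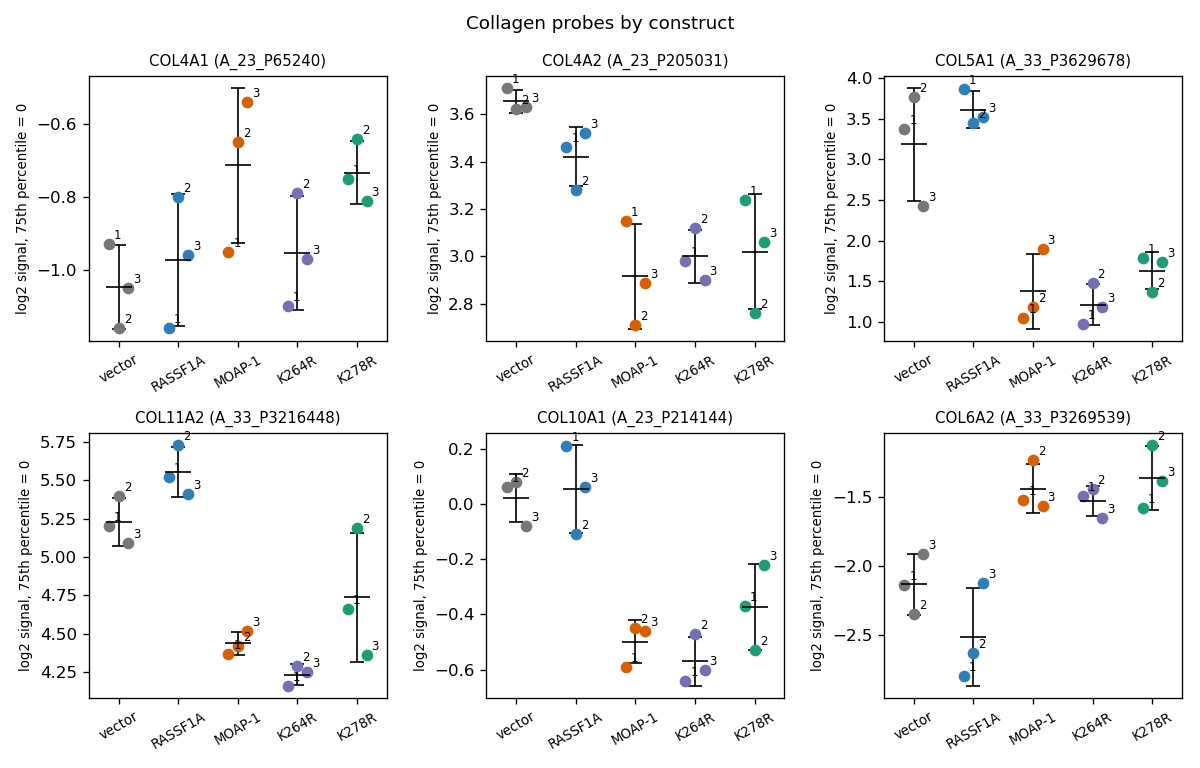
Log2 signal (75th percentile of each array set to 0) of 6 collagen probes is plotted per tumor and construct. Numbered points are tumors and bars give the mean and the SD (n = 3). COL4A2, COL5A1 A_33_P3629678, and COL10A1 lie lower and COL6A2 A_33_P3269539 lies higher in all 9 tumors of the MOAP-1 constructs than in the vector and RASSF1A tumors. On COL4A1 these 9 overlap the vector and RASSF1A tumors, although the K278R tumors alone lie above all vector tumors. Separation from vector alone was found on 48.5% of all kept probes in MOAP-1, 52.8% in K264R, and 37.3% in K278R. Separation from vector and RASSF1A tumors together was not counted over all kept probes.

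The remaining classes gave few calls. COL10A1, the network collagen of growth cartilage, lay at -0.64, -0.47, and -0.60 in K264R tumors and at 0.06, 0.08, and -0.08 in vector tumors, a fall of 0.59 that just passed 1.5-fold (standard error 0.11, limma adjusted p = 0.00117). In MOAP-1 tumors it lay at -0.59, -0.45, and -0.46, a change of -0.52 (adjusted p = 0.00335), under 1.5-fold. The call in K264R was lost without K264R tumor 1 or 3 or vector tumor 1 or 2, when the change was as small as -0.55. COL8A1, a short-chain collagen of vessel walls, ran from -3.07 to 0.15 within the vector tumors alone and was called in no comparison.

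Of the fibril-associated collagens, 14 kept probes of 9 genes, only COL19A1 A_33_P3304157 was called. It lay at -6.52, -6.51, and -6.52 in MOAP-1 tumors, -6.92, -6.31, and -6.77 in K264R, and -5.71, -6.17, and -5.91 in vector tumors, and was well above background in 2 of the 3 tumors of each MOAP-1 construct. The probe was kept through the vector tumors and those labelled RASSF1A, in which it was higher, so its changes of -0.59 in MOAP-1 (standard error 0.18, limma adjusted p = 0.0245) and -0.74 in K264R (adjusted p = 0.00649) are against tumors partly at background. The first call was lost when any MOAP-1 tumor or vector tumor 1 or 3 was left out. The other kept COL19A1 probe was not called. The COL16A1 probes were not called in any comparison with vector: A_23_P160318 lay at -0.55, 0.94, and 0.54 in MOAP-1 tumors and -0.79, -0.13, and -0.71 in vector tumors, whereas A_33_P3210647 lay at 2.84, 2.62, and 2.69 and at 3.03, 3.10, and 3.05. COL9A3 lay at 2.73, 2.48, and 2.68 in MOAP-1 tumors and at 2.91, 3.34, and 3.20 in vector tumors, under 1.5-fold. COL12A1 A_23_P214168 lacks a value in K264R tumor 3, where the scanner software marked its spot as an outlier, and lay between -0.55 and -0.04 in the other 14 tumors.

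Among the transmembrane collagens, COL25A1 was called higher in MOAP-1 tumors (0.79, standard error 0.26, limma adjusted p = 0.0345). Its values were -3.76, -2.44, and -3.81 in MOAP-1 tumors and -4.18, -4.13, and -4.06 in vector tumors, and MOAP-1 tumor 2 stood apart. Without that tumor the change was 0.34 and the call was lost, as it was without any 1 vector tumor. COL17A1, the hemidesmosome collagen of epithelial cells, lay between -6.18 and -4.44 in all tumors and changed by -0.03 in MOAP-1 (adjusted p = 0.958), -0.39 in K264R (adjusted p = 0.392), and 0.27 in K278R (adjusted p = 0.594). COL7A1, which forms the anchoring fibrils below epithelia, changed by -0.22 in MOAP-1 (adjusted p = 0.135).

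The lysine mutants were not called apart from wild type MOAP-1 on any collagen probe. Of the 47 kept probes, limma called 0 between MOAP-1 and K264R and 0 between MOAP-1 and K278R, and the methods' t-test also called 0 in each. All kept probes gave 0.00327% higher and 0% lower in the first comparison and 0% in either direction in the other. At an unadjusted p below 0.05, 6 collagen probes differed from K264R and 1 from K278R, and the matching share of all kept probes was not counted. The lowest adjusted p against K264R belonged to COL4A3 (0.325), whose change was 0.58 (standard error 0.15). COL1A1 was 1.38 higher in MOAP-1 than in K264R tumors, with a standard error of 0.76, and 0.02 higher than in K278R tumors with the same error. On the slide that MOAP-1 tumor 2 shared with the 3 K278R tumors, MOAP-1 tumor 2 lay inside the K278R range on 25 of the 47 probes. The same count over all kept probes was not made, so this describes the tumor and is not a result about collagens. With limma's array weights, 12 collagen probes were called between MOAP-1 and K264R, 25.5% of the 47 against 4.61% of all kept probes under the same setting. All 12 were higher in MOAP-1, among them COL1A1, COL1A2, COL3A1, and COL5A1 A_23_P83818.

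The tumors labelled RASSF1A differed from vector on 4 collagen probes at an unadjusted p below 0.05 and on 0 after adjustment, and the methods' t-test called 0. The share of all kept probes at that unadjusted threshold was not counted. The lowest adjusted p was 0.351 (COL21A1, a change of 0.27). Without RASSF1A tumor 3, which shared the vector slide, COL6A2 A_23_P310956 (-0.94, adjusted p = 0.0263) and COL11A2 A_23_P42322 (1.14, adjusted p = 0.0244) were called, or 4.26% of the 47 against 4.60% of all kept probes. The remaining tumors labelled RASSF1A, 1 and 2, were alone on their slide and on the second scan day, so these cannot be told apart from the construct there. On the shared slide, RASSF1A tumor 3 lay inside the vector range on 25 of the 47 probes, again without a count over all kept probes. Between MOAP-1 tumors and those labelled RASSF1A, 3 collagen probes were higher and 3 lower, against 13% and 8.14% of all kept probes. Higher were COL5A1 A_23_P83818 and both probes of COL6A2, and lower were COL5A1 A_33_P3629678, COL11A2 A_33_P3216448, and COL19A1 A_33_P3304157. The COL19A1 probe was kept only through the vector tumors and those labelled RASSF1A, and was well above background in 2 of 3 MOAP-1 tumors.

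Of the genes that make and process collagen chains, 25 of 26 had a kept probe (32 probes). In the MOAP-1 comparison 7 of these probes were higher and 1 lower, in K264R 3 and 2, in K278R 6 and 0, and in the tumors labelled RASSF1A 0 and 0. Of all kept probes, 9.92% were higher and 6.69% lower in MOAP-1, 9.25% and 10.2% in K264R, and 7.71% and 3.2% in K278R, and these shares are also the background for the shorter lists. BMP1, the C-propeptidase of fibrillar procollagens, lay at -1.80, -1.21, and -0.80 in MOAP-1 tumors and at -2.46, -2.77, and -2.45 in vector tumors. It rose by 1.29 (limma adjusted p = 0.00102) in MOAP-1, 0.73 (adjusted p = 0.0208) in K264R, and 1.05 (adjusted p = 0.00716) in K278R. COLGALT1, which adds galactose to hydroxylysine, rose on both probes in MOAP-1 (0.79 and 1.01) and K278R (0.85 and 0.98). P4HA3, a prolyl 4-hydroxylase subunit, rose by 1.50 in MOAP-1 (adjusted p = 0.026). P3H2, a prolyl 3-hydroxylase that acts on type IV chains, fell by 0.73 in MOAP-1 (adjusted p = 0.00827) and by 1.22 in K264R (adjusted p = 0.000289). The probes of MIA3, an exporter of procollagen, were called in opposite directions in K264R (0.79 and -0.87).

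All 5 lysyl oxidase genes had a kept probe (6 probes), of which 2 were higher in MOAP-1, 1 in K264R, and 2 in K278R, with 0 lower, counts too small to set against the background shares. LOXL3 A_23_P39799 lay at -3.61, -2.23, and -2.69 in MOAP-1 tumors and at -4.56, -4.56, and -4.46 in vector tumors, a rise of 1.69 (limma adjusted p = 0.00346). It rose by 1.04 in K264R and 1.52 in K278R. The other LOXL3 probe was called in none of these. LOXL1 rose 2.15-fold in MOAP-1 (adjusted p = 0.0138) and by 1.00 on the log2 scale in K278R (adjusted p = 0.0313). Of the 11 genes of collagen degradation, all with a kept probe, 0 were called in MOAP-1 or K264R and 1, TIMP3, an inhibitor of metalloproteinases, was higher in K278R (0.59, adjusted p = 0.0145). Of the 8 receptor genes (9 probes), 2 were higher in MOAP-1, 1 in K264R, and 2 in K278R. DDR1, a receptor tyrosine kinase of epithelial cells that binds collagen, rose on probe A_23_P93311 by 0.86, 0.84, and 0.69, and ITGA1, the collagen-binding integrin chain, rose by 0.67 in MOAP-1 and 0.59 in K278R. The other kept DDR1 probe, A_33_P3264163, was called in none of these.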

How the data were processed

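For each array the authors deposited Agilent Feature Extraction output, an intensity per spot after that software's background correction, without normalization between arrays (version 10.5.1.1 per the file headers, 9.1 per the labels). They also deposited log2 values from GeneSpring, an alternative here, in which 7 of 15 columns follow another array of the same construct. Control and outlier spots were removed, each array was centered on the 75th percentile of its log2 intensities, and spots of a probe were averaged (34127 probes, 30585 kept). All 15 arrays were fitted in limma 3.58.1 (R 4.3.3) with construct as the only term (10 residual degrees of freedom) and Benjamini-Hochberg adjustment over the kept probes. MOAP-1 against RASSF1A was added after results were seen. The script was tested on simulated data. Full values are given for called collagen probes, probes called in opposite directions, and COL1A1, COL1A2, COL3A1, COL5A1, COL4A1, COL4A2, COL6A1, COL6A2, COL6A3, COL17A1, and COL18A1. The members, lists, and rule were chosen with earlier results of these data known. Gene names come from RefSeq through the accession of each probe (74.5% of probes). Alternatives covered normalization, background, filters, blocks, weights, tests, and tumors left out. Array number limits the precision.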

Additional observations from a re-analysis of the deposited data

Results flagged for a closer look

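A difference between the effects of wild type MOAP-1 and RASSF1A, each against the same vector tumors, was tested as the direct contrast between them in limma, a comparison added after results were seen. It was called for 6 collagen probes, 3 higher and 3 lower in MOAP-1 (6.38% of the 47 each), against 13% and 8.14% of all kept probes. The differences, MOAP-1 minus RASSF1A on the log2 scale, were 2.25 for COL5A1 A_23_P83818 (adjusted p = 0.0378), 1.09 for COL6A2 A_23_P310956 (adjusted p = 0.00521), 1.08 for COL6A2 A_33_P3269539 (adjusted p = 0.00051), -2.24 for COL5A1 A_33_P3629678 (adjusted p = 0.000136), -1.11 for COL11A2 A_33_P3216448 (adjusted p = 0.000294), and -0.68 for COL19A1 A_33_P3304157 (adjusted p = 0.00925). The COL19A1 probe was kept only through the vector tumors and those labelled RASSF1A, in which it was higher. It was well above background in 2 of 3 MOAP-1 tumors, so its difference is against tumors partly at background. On each of the 6 probes all 3 tumors of a construct lay above all 3 of the other. Such separation was common, found on 18 of the 47 collagen probes and on 51.2% of all kept probes. No slide held both constructs, so slide and construct cannot be told apart here.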

How the results depend on the processing

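The count of called collagen probes was 9 in MOAP-1, 6 in K264R, 5 in K278R, 0 in RASSF1A (each against vector), 0 in MOAP-1 against K264R and K278R, and 10 over all 5 constructs. In MOAP-1 it was 5 under quantile normalization, 1 under normexp, 5 under normexp without 17 spots of outlying local background (a setting chosen after seeing the data), 14 with array weights, 2 by the methods' t-test after Benjamini-Hochberg adjustment, and 4 to 13 with tumors left out (4 without MOAP-1 tumor 2, 5 without vector tumor 3). In K264R it was 3 under quantile normalization, 2 under normexp, and 4 to 7 with tumors left out. In K278R it was 3 under quantile normalization, 0 and 2 under the normexp settings, 8 with slide as a random block, 2 with only the arrays compared, 8 and 0 by the t-test without and with adjustment, and 3 to 5 with tumors left out (3 without vector tumor 2). RASSF1A gave 0 to 2 with tumors left out. MOAP-1 against K264R gave 12 with array weights and 0 with any tumor left out, and MOAP-1 against K278R gave 1 with slide as a fixed block, COL25A1, and 0 with any tumor left out. Over all 5 constructs the count was 2 under normexp, 17 with array weights, and 8 to 18 with tumors left out (18 without MOAP-1 tumor 1). Slide as a fixed block could not be fitted between the MOAP-1 constructs and vector. Over all kept probes the number called moved as well. In MOAP-1 against vector it was 5079 in the fit reported, 4665 under quantile normalization, 520 under normexp, and 2838 without the outlying spots. It was 5518 with array weights, 2627 by the t-test after adjustment, and 3762 to 5685 with tumors left out. In K264R it was 5949, with 5606 under quantile normalization, 906 under normexp, and 4896 to 6764 with tumors left out. In K278R it was 3337, with 2656 under quantile normalization, and 1 and 1310 under the normexp settings. It was 3765 with slide as a random block, 1171 with only the arrays compared, and 1687 to 3942 with tumors left out. The t-test called 3126 there without adjustment and 0 with it. For the F test over all 5 constructs the alternatives were not counted over all kept probes. The collagen counts are to be read beside these numbers. The cause of these moves was not tested.

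With the replicate number as a block, 13 collagen probes were called in MOAP-1, 6 in K264R, 8 in K278R, 0 in RASSF1A, 0 against each mutant, and 13 over all constructs. Of all kept probes, the same block called 5250 in MOAP-1, 6047 in K264R, 3558 in K278R, and 0 in RASSF1A. All 20 calls against vector were also made with this replicate block, and COL1A2 (adjusted p = 0.0326) and COL3A1 (adjusted p = 0.0325) were called in MOAP-1 too. Same-numbered tumors did not pair throughout: of 30 same-numbered pairs, 15 had a correlation of deviations over 0.1 (range -0.25 to 0.366), and no construct pair had all 3. Between tumors numbered 2 it was positive in every construct pair (0.058 to 0.254), and between those numbered 1 or 3 it had both signs. Whether tumors were paired is thus not settled. Under normexp, all kept probes had a median change of -0.53 in MOAP-1 and -0.47 in K278R. Reversed there were, in MOAP-1, COL15A1 (-0.48, or 0.05 relative to that median), COL25A1 (-0.94, or -0.41), and COL6A2 A_33_P3269539 (-0.02, or 0.51), and, in K278R, COL5A1 A_23_P83818 (-0.25, or 0.22) and COL5A3 (-1.57, or -1.10). COL5A3 was also reversed without the outlying spots (-0.29). Over the 20 calls and all alternatives and left-out tumors, 275 of 377 repeats were called in the same direction, 96 fell short of a call, and 6 were reversed. COL11A2 A_33_P3216448 and COL5A1 A_33_P3629678 in K264R were called in every repeat run.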
